A study of Mus musculus with 12 samples.

Results

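The genes described here are 10 members of the heat shock response: the chaperones Hspa1a, Hspa1b, Dnajb1, Hsph1, Hspa8, Hsp90aa1, Hsp90ab1, Hspd1 and Hspe1, and Hsf1, the transcription factor that drives the inducible ones. They were chosen by name, and each was read from the probe set annotated to its symbol alone that was brightest by mean over all arrays. Of the 10 genes, 8 had such a probe set, out of 22180 genes read in the same way. The annotation used lists no probe set for Hsp90ab1 or Hsf1 alone, and neither gene was analysed here.

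Chaperones bind unfolded or half-folded proteins and help them reach or keep their shape, and cells raise many of them after heat, oxidants or other protein-damaging stress. In resting cells HSF1 is held inactive by chaperones, among them HSP90; when misfolded proteins draw the chaperones away, HSF1 forms trimers, enters the nucleus and binds heat shock elements, which are inverted repeats of the unit nGAAn. Some members, such as Hspa8 and the mitochondrial pair Hspd1 and Hspe1, are also made at a steady level without stress, and haematopoietic stem cells are known to be sensitive to disturbed protein quality.

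The study sorted LSK cells (lineage marker negative, Sca1 and Kit positive), the fraction of mouse bone marrow with stem cells and multipotent progenitors, and used them without culture. All mice were C57BL/6 and were labelled as Mll5-/- or as wild type (WT). Mll5, renamed Kmt2e, encodes a chromatin regulator. The 4 groups were Mll5-/- with NAC, Mll5-/- mock, WT with NAC and WT mock, with 3 arrays each. NAC (N-acetyl-L-cysteine, a thiol antioxidant) was given at 1 g per liter of drinking water from the time that heterozygous parents were mated, through pregnancy and the life of the progeny; mock mice went without it. The labels give neither the age of the mice nor whether an array held cells of 1 mouse or of several, and the spread behind each p-value, that between arrays, may be technical. In such bulk samples, fewer cells of a type and less RNA per cell cannot be told apart.

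Array medians lay between 2.89 and 2.96 on the log2 scale, with correlations across genes of 0.976 to 0.988 between arrays. Mll5-/- NAC replicate 1 and WT mock replicate 1 had the lowest array weights, 0.54 and 0.71, against 0.87 to 1.35 for the others. The Kmt2e probe set gave 7.12 ± 0.18 in Mll5-/- NAC cells, 7.27 ± 0.30 in Mll5-/- mock cells, 7.55 ± 0.21 in WT NAC cells and 7.52 ± 0.15 in WT mock cells (SD, n = 3 each), a log2 difference between genotypes over both treatments of -0.34 (SE 0.12, limma adjusted p = 0.419). Whether its probes lie in the deleted part is not given, so it checks the labels only weakly. Of the LSK markers, 8 of 10 were read, with mean levels per array of 7.06 to 7.445 in Mll5-/- NAC, 7.575 to 7.77 in Mll5-/- mock, 7.35 to 7.425 in WT NAC and 7.45 to 7.87 in WT mock arrays, so that NAC arrays were below mock arrays in both genotypes. All 4 T cell markers read were under the median gene level of 3.17.

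None of the 8 heat shock genes passed an adjusted p of 0.05 in any of 7 comparisons, which were the genotype in mock, in NAC and over both, NAC in Mll5-/-, in WT and over both, and the interaction of the genotype with NAC. The test was limma's moderated test with Benjamini-Hochberg adjustment over all 22180 genes. Few genes of any kind passed: 0.00902% in the genotype in mock, 0% in the genotype in NAC, 0.00902% in the genotype over both treatments, 0.00451% for NAC in Mll5-/-, 0.00902% for NAC in WT, 0.00451% for NAC over both genotypes and 0% for the interaction. At an adjusted p under 0.10 the 8 genes still counted 0, against 0.00902% of all genes in the genotype in mock and in NAC, 0.0541% over both treatments, 0.0135% for NAC in Mll5-/- and in WT, 0.00451% for NAC over both genotypes and 0% for the interaction. The lowest adjusted p of any heat shock gene was 0.458, for Hspd1 between genotypes over both treatments. The 8 genes differed from each other in their spread within groups. Hspd1 and Hspe1 also had small differences without overlap of the groups in some comparisons of 2 groups. In these comparisons, 5.08% to 6.39% of all genes were likewise apart with the Mll5-/- or the NAC arrays higher.

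At an unadjusted p under 0.05, 1 of 8 heat shock genes stood in the genotype in NAC (Hspe1), 1 in the genotype over both treatments (Hspd1) and 1 for NAC over both genotypes (Hspd1), and 0 in the other 4 comparisons. Among all genes the share at that p was 7.17% in the genotype in NAC, 9.08% in the genotype over both treatments and 7.43% for NAC over both genotypes, and 6.63% in the genotype in mock, 5.86% for NAC in Mll5-/-, 5.92% for NAC in WT and 4.21% for the interaction. The median log2 difference over the 8 genes was -0.023 in the genotype in mock, 0.17 in the genotype in NAC, 0.17 for NAC in Mll5-/- and -0.032 for NAC in WT. The same medians over all genes lay between -0.0033 and 0.0067. Over the alternatives the medians of the 8 genes changed sign in the genotype in mock (-0.094 to 0.067), for NAC in Mll5-/- (-0.0075 to 0.22) and for NAC in WT (-0.12 to 0.061). In the genotype in NAC the median ranged over 0.12 to 0.27. These comparisons share arrays in pairs, so their values are set side by side and not counted as separate evidence.

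**Figure D1:**
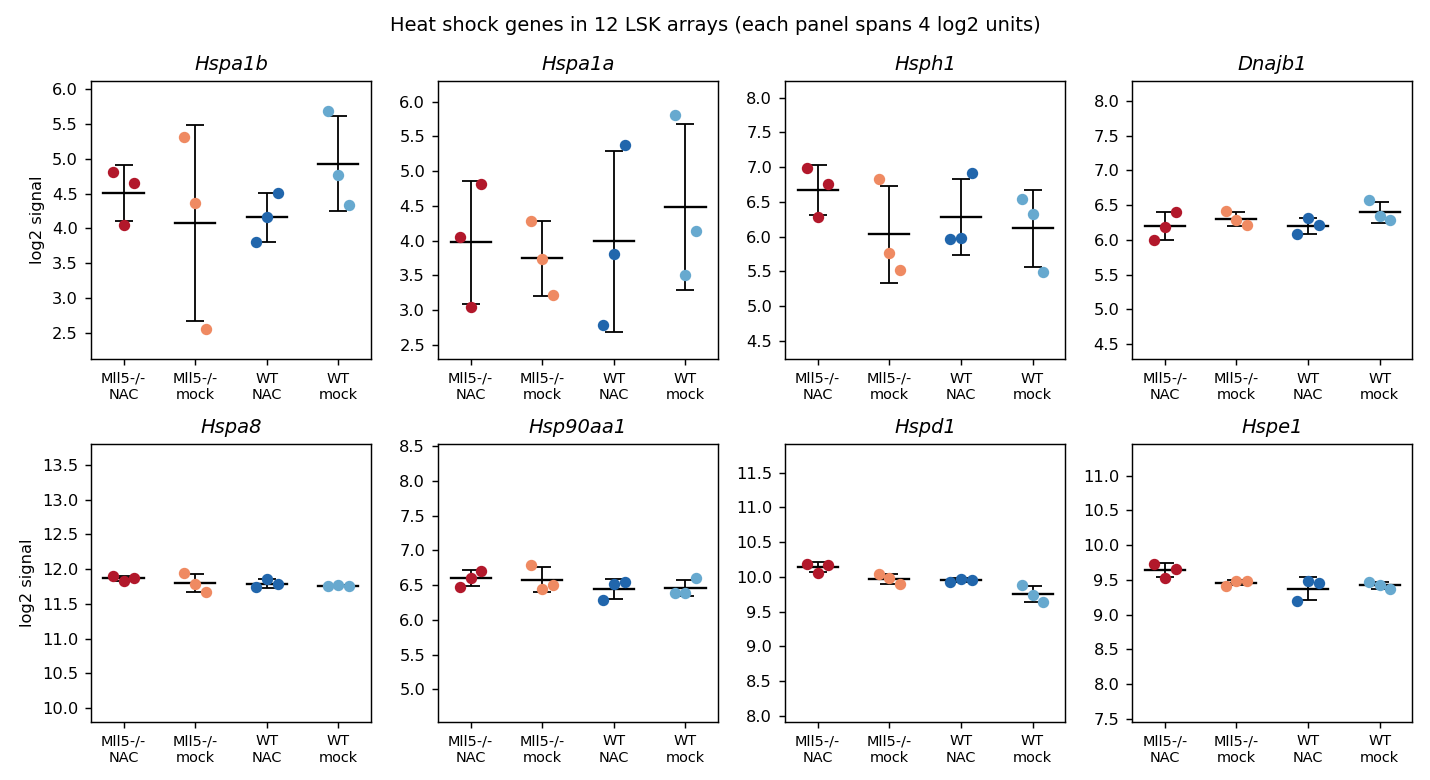
Log2 signal (y axis) of each of the 8 heat shock genes in every array, by group (x axis); points are arrays, horizontal bars the group means and error bars the SD of 3 arrays, and every panel spans 4 log2 units. Hspa1b, Hspa1a and Hsph1 scatter most between replicates, while Hspa8 stays between 11.67 and 11.94 in all 12 arrays.

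Hspa1b and Hspa1a encode the stress-inducible HSP70, the ATP-driven chaperone that is barely made in unstressed cells and rises most steeply under heat shock. They are neighbouring, nearly identical genes, so each probe set may read transcripts of both. The RefSeq promoter windows of GRCm38.p6 (250 bases before to 50 after the start) differed at 4 of 300 bases between them. The stretches of 150 bases directly before each start, at chr17:34959239-34959388 for Hspa1b and chr17:34972157-34972306 for Hspa1a, both on the minus strand, are shown because they let a reader see how little separates the genes. Capitals mark the pair of heat shock element units GAANNTTC, found on either strand since it reads the same on both.
Hspa1b: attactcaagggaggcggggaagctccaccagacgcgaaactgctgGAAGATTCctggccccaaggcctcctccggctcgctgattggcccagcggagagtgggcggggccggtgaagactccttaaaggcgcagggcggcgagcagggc
Hspa1a: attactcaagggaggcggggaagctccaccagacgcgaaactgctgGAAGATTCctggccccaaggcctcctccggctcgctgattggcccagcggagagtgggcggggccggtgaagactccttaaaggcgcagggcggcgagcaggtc
The stretches differed at 1 of 150 bases, and both held GAANNTTC at -104 to -97, counted from the start, with no further match in the window. This motif was found in 7.86% of 32851 mouse promoter windows, and a match is a description of letters, not of binding.

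The Hspa1b signal was 4.81, 4.05 and 4.66 in Mll5-/- NAC arrays, 5.32, 4.36 and 2.55 in Mll5-/- mock arrays, 3.80, 4.17 and 4.51 in WT NAC arrays and 5.69, 4.77 and 4.34 in WT mock arrays (log2, replicates 1 to 3). The highest array was a WT mock array and the lowest a Mll5-/- mock array, and all pairs of groups overlapped. Between genotypes the log2 difference was -0.86 in mock (SE 0.54, 95% interval -2.03 to 0.32, limma adjusted p = 0.832) and 0.35 in NAC (SE 0.54, adjusted p = 0.935). NAC against mock gave 0.43 in Mll5-/- cells (adjusted p = 0.963) and -0.77 in WT cells (adjusted p = 0.886). With all arrays, the fitted values had opposite signs in the 2 treatments and in the 2 genotypes. The interaction that tests this was 1.20 (SE 0.77, 95% interval -0.45 to 2.86, unadjusted p = 0.141, limma adjusted p = 0.999). Much of it came from 1 array: without Mll5-/- mock replicate 3 the interaction was 0.44 and the genotype difference in mock -0.093, and without Mll5-/- mock replicate 1 they were 1.825 and -1.48. NAC in Mll5-/- turned to -0.33 without Mll5-/- mock replicate 3, the sign of NAC in WT, which was -0.395 without WT mock replicate 1.

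Hspa1a varied as widely. Its signal was 4.05, 3.05 and 4.82 in Mll5-/- NAC arrays, 4.28, 3.74 and 3.21 in Mll5-/- mock arrays, 2.78, 3.81 and 5.37 in WT NAC arrays and 5.81, 3.51 and 4.13 in WT mock arrays. The WT NAC arrays alone spanned most of the range of all 12. The log2 difference between genotypes was -0.74 in mock (SE 0.67, limma adjusted p = 0.884) and -0.013 in NAC (adjusted p = 0.996), and NAC against mock gave 0.23 in Mll5-/- cells (adjusted p = 0.983) and -0.50 in WT cells (adjusted p = 0.949). Single arrays set these values: without WT mock replicate 1 the genotype difference in mock was -0.077 and NAC in WT 0.17. Without WT NAC replicate 3, NAC in WT was -1.19 and the genotype difference in NAC 0.68, and that genotype difference was -0.62 without WT NAC replicate 1. NAC in Mll5-/- was -0.19 without Mll5-/- NAC replicate 3.

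Hsph1 encodes HSP110, a nucleotide exchange factor that recharges HSP70 and a further target of HSF1. The 100 bases before its start, chr5:149636337-149636436 on the minus strand of GRCm38.p6 (RefSeq), are shown for their match to the other arrangement of paired units, TTCNNGAA, in capitals.
Hsph1: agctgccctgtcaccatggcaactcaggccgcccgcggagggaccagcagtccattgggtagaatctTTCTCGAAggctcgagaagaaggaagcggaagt
TTCTCGAA lay at -33 to -26 from this start, and after it, at 37 to 49, lay a 3-unit form, TTCNNGAA directly followed by NNTTC. TTCNNGAA was found in 8.52% of all promoter windows, and a 3-unit form (TTCNNGAA followed by NNTTC, or GAANNTTC followed by NNGAA) in 0.603%, on either strand. The 3-unit forms contain the pairs, so the matches overlap.

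The Hsph1 signal was 6.99, 6.28 and 6.76 in Mll5-/- NAC arrays, 6.83, 5.76 and 5.52 in Mll5-/- mock arrays, 5.96, 5.98 and 6.92 in WT NAC arrays and 6.54, 6.33 and 5.49 in WT mock arrays. Each of the groups other than Mll5-/- NAC reached from under 6 to over 6.5, and no pair of groups was apart. NAC against mock gave a log2 difference of 0.64 in Mll5-/- cells (SE 0.37, limma adjusted p = 0.897) and 0.17 in WT cells (adjusted p = 0.974). Between genotypes it was -0.083 in mock (adjusted p = 0.984) and 0.39 in NAC (adjusted p = 0.867). The NAC difference in Mll5-/- cells was 0.38 without Mll5-/- mock replicate 3 and 1.04 without Mll5-/- mock replicate 1. The genotype difference in mock was 0.175 and -0.48 without these arrays, in the same order. In NAC it was 0.23 without WT NAC replicate 1 and 0.71 without WT NAC replicate 3, and NAC in WT was -0.15 without the last of these.

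The SD within groups was 1.02 for Hspa1a, 0.83 for Hspa1b and 0.55 for Hsph1, against a median of 0.20 over all genes and 0.24 over the genes above the median level. These SDs lay at percentiles 99.9, 99.7 and 98.4 of all genes. The other 5 heat shock genes lay at the low end: 0.15 for Dnajb1 and 0.14 for Hsp90aa1 (percentiles 22.6 and 20.7), 0.10 for Hspe1 (5.2), 0.08 for Hspd1 (1.8) and 0.08 for Hspa8 (1.3). SDs were generally small among the brightest probe sets, where Hspa8, Hspd1 and Hspe1 lie, as the plot of the SD against the mean signal shows.

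**Figure D2:**
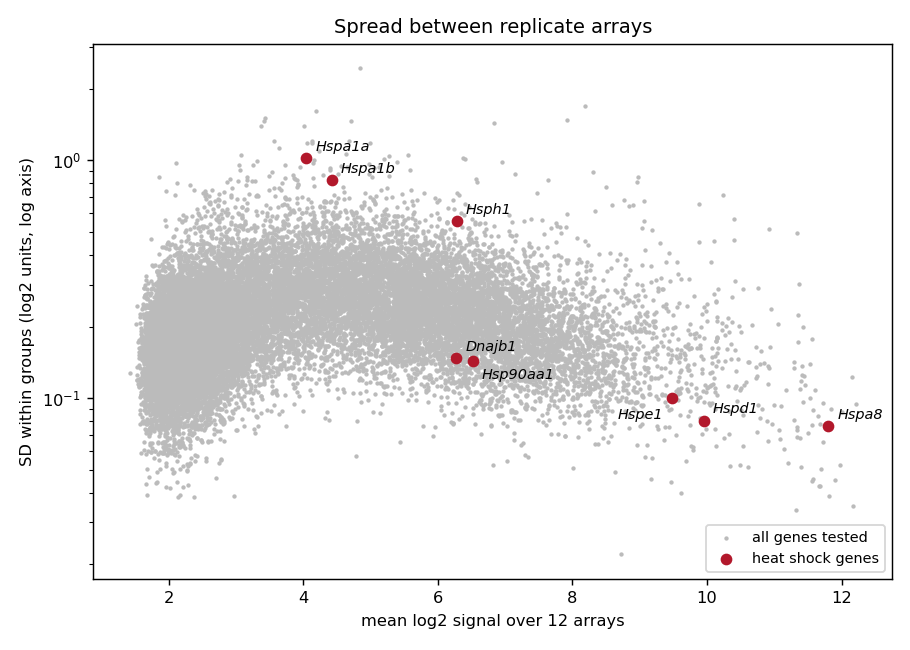
SD between replicate arrays within groups (y axis, log2 units, log scale) against the mean log2 signal over 12 arrays (x axis) for all 22180 genes in grey and the 8 heat shock genes in red. Hspa1a, Hspa1b and Hsph1 lie at the top of the cloud at their signal, with SDs of 1.02, 0.83 and 0.55.

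Hspa1a and Hsph1 were higher in arrays with more Hspa1b. Over the 12 arrays, Hspa1b correlated with Hspa1a at Pearson r = 0.67 (permutation p = 0.0152, adjusted over 7 relations 0.0531) and Spearman rho = 0.73 (permutation p = 0.00935, adjusted 0.0418), and r was 0.53 without the 2 arrays farthest from the Hspa1b median, WT mock replicate 1 and Mll5-/- mock replicate 3. With Hsph1, r was 0.66 (permutation p = 0.0137, adjusted 0.0531) and rho 0.71 (permutation p = 0.0119, adjusted 0.0418), and r was 0.63 without those arrays. Both rank correlations thus passed 0.05 after adjustment and both Pearson correlations did not. Whether the Hspa1a and Hspa1b probe sets read the same transcripts was not tested. Measured as deviations from the group means, r was 0.64 for Hspa1a and 0.81 for Hsph1. Among 10387 other genes above the median level, 0.52% had an r with Hspa1b at or above that of Hspa1a and 0.645% at or above that of Hsph1, and for the deviations these shares were 3.65% and 0.693%.

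The remaining relations with Hspa1b did not pass the adjustment: r was 0.57 for Hspa8 (adjusted p = 0.121), 0.53 for Dnajb1 (adjusted p = 0.133), 0.19 for Hspe1 and 0.18 for Hsp90aa1 (adjusted p = 0.682 each) and 0.13 for Hspd1 (adjusted p = 0.695, all by permutation). Within groups, the deviations of Hspa8 and Hspd1 from their group means correlated with those of Hspa1b at 0.81 and 0.84, as closely as those of Hsph1, as a description of 12 arrays (0.655% and 0.433% of the other genes were at or above these). Of those other genes, the ones whose signal ran closest to Hspa1b over the 12 arrays were Fbxo30, an F-box protein gene (r = 0.89), Ddx31, an RNA helicase gene (0.87), Marchf6, a ubiquitin ligase gene of the endoplasmic reticulum (0.86), Mavs, an adaptor of antiviral RNA sensing (0.82), and Tslp, a cytokine gene (0.82). Hspa1b itself spanned 2.55 to 5.69. Fbxo30 ranged over 4.88 to 6.32, Ddx31 over 4.06 to 4.81 and Marchf6 over 7.23 to 7.81. Mavs ranged over 5.99 to 7.31 and Tslp over 3.2 to 4.46. These 5 were picked as the highest r among 10387 genes over 12 arrays, with no test. Values of r this high can arise by chance in such a choice.

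**Figure D3:**
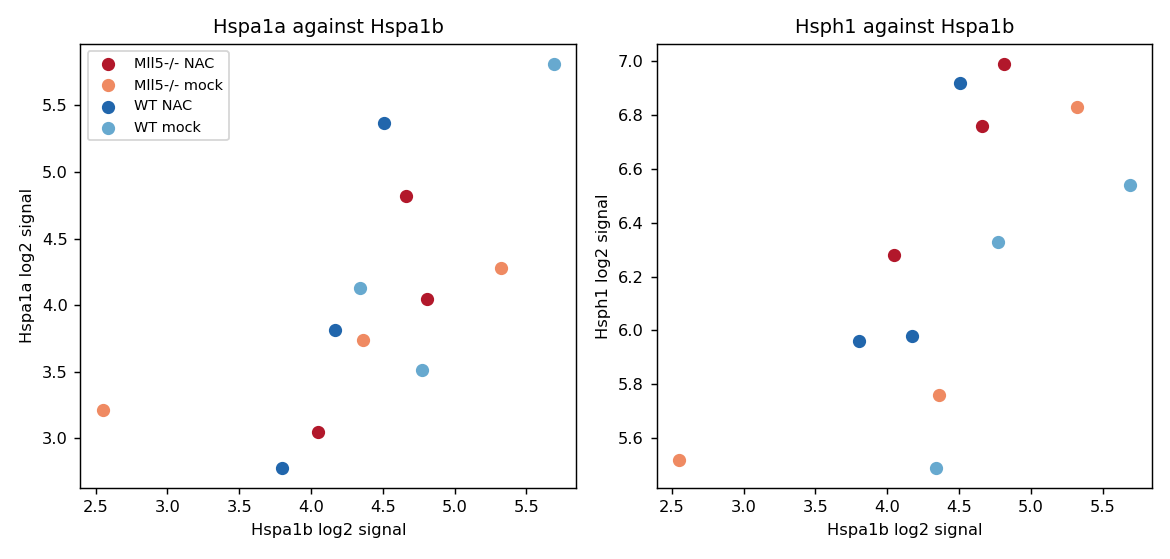
Log2 signal of Hspa1a (left, y axis) and of Hsph1 (right, y axis) against that of Hspa1b (x axis) in the 12 arrays, coloured by group. Arrays with a higher Hspa1b signal tend to have higher Hspa1a (r = 0.67) and Hsph1 (r = 0.66), and the arrays of each group are spread along the trend.

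Dnajb1 encodes the inducible HSP40, which hands unfolded clients to HSP70 and, as an HSF1 target, is usually induced along with it. Its signal was 6.00, 6.19 and 6.40 in Mll5-/- NAC arrays, 6.41, 6.28 and 6.21 in Mll5-/- mock arrays, 6.08, 6.31 and 6.21 in WT NAC arrays and 6.57, 6.35 and 6.28 in WT mock arrays. All 12 arrays lay within 0.57 log2 units, so Dnajb1 did not share the swings of Hspa1b in size. The largest of its log2 differences was -0.20 for NAC in WT (SE 0.14, limma adjusted p = 0.886), beside -0.10 for NAC in Mll5-/-, -0.10 for the genotype in mock (adjusted p = 0.933) and -0.0033 for the genotype in NAC. Over both genotypes NAC gave -0.15 (SE 0.10, adjusted p = 0.788). NAC in WT was -0.115 and the genotype difference in mock -0.015 without WT mock replicate 1, and NAC in Mll5-/- was -0.005 without Mll5-/- NAC replicate 1. Neither of its 2 RefSeq promoter windows held any of the motifs searched, which says only that these letters are not in these windows.

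Hspa8 encodes HSC70, the constitutive HSP70 of the cytosol. It was read at 11.90, 11.83 and 11.88 in Mll5-/- NAC arrays, 11.94, 11.79 and 11.67 in Mll5-/- mock arrays, 11.74, 11.86 and 11.78 in WT NAC arrays and 11.76, 11.77 and 11.76 in WT mock arrays. Both pairs of genotypes and both pairs of treatments overlapped. The log2 differences were 0.037 and 0.077 between genotypes in mock and NAC and 0.07 and 0.03 for NAC in Mll5-/- and WT (SE 0.11, limma adjusted p = 0.928 to 0.985). The 95% interval of the genotype difference in mock was -0.20 to 0.27, and its estimate was -0.033 without Mll5-/- mock replicate 1. Hspa8 had 4 probe sets of its own, and their genotype differences over both treatments were 0.057, 0.062, 0.105 and 0.23, the last with a limma adjusted p of 0.658 over all 41345 probe sets. The probe sets that gave 0.057 and 0.062 differed by at most 0.02 in any array, so they are hardly separate readings.

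Hsp90aa1 encodes the inducible form of cytosolic HSP90, which completes the folding of kinases and steroid receptors and holds HSF1 in check. Its signal was 6.48, 6.61 and 6.71 in Mll5-/- NAC arrays, 6.79, 6.45 and 6.50 in Mll5-/- mock arrays, 6.28, 6.51 and 6.54 in WT NAC arrays and 6.39, 6.39 and 6.60 in WT mock arrays. All groups overlapped. The log2 difference between genotypes over both treatments was 0.14 (SE 0.09, limma adjusted p = 0.697), made of 0.12 in mock and 0.16 in NAC, and NAC gave 0.02 in Mll5-/- and -0.017 in WT. Without Mll5-/- mock replicate 1 the genotype difference was 0.015 in mock and 0.086 over both, and without WT NAC replicate 1 it was 0.075 in NAC.

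Hspd1 and Hspe1 encode HSP60 and HSP10, the barrel and lid of the mitochondrial chaperonin. The genes lie head to head on chromosome 1 and share a promoter between them: the window of Hspe1 and the window of one of the 2 annotated Hspd1 starts had 285 of 300 bases in common on opposite strands. The stretches below are shown because the same 18 bases, chr1:55088059-55088076, hold the heat shock element units of both genes. They cover chr1:55087998-55088147 on the plus strand before the Hspe1 start and chr1:55088023-55088122 on the minus strand before that Hspd1 start (GRCm38.p6, RefSeq), with the units in capitals.
Hspe1: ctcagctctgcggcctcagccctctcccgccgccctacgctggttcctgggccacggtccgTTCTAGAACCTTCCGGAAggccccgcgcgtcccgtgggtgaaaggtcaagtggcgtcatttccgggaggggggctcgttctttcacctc
Hspd1: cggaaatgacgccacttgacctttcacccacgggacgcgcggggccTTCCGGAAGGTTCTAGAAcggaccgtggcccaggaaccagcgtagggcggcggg
The block read TTCTAGAACCTTCCGGAA at -89 to -72 from the Hspe1 start and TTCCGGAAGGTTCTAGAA at -144 to -127 from the Hspd1 start. It held both 3-unit forms, overlapping each other; 0.603% of all promoter windows held either. The window of the other Hspd1 start had none. In all, 6 of the 10 genes had a RefSeq window, 5 of these held a pair of units (15.1% of all windows did) and 3 a 3-unit form. A gene counted if any of its windows matched, so the share of windows is not a like measure. The genes are also not separate sequences. Hspd1 and Hspe1 match on the same 18 bases, and the windows of Hspa1a and Hspa1b differ at 4 of 300 bases.

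The Hspd1 signal was 10.19, 10.06 and 10.17 in Mll5-/- NAC arrays, 10.04, 9.98 and 9.89 in Mll5-/- mock arrays, 9.92, 9.97 and 9.96 in WT NAC arrays and 9.88, 9.74 and 9.64 in WT mock arrays. Within each treatment every Mll5-/- array was above every WT array, and within each genotype every NAC array was above every mock array. The gap was narrowest in mock, with 9.89 as the lowest Mll5-/- and 9.88 as the highest WT array. Group means were 10.14 ± 0.07 in Mll5-/- NAC, 9.97 ± 0.08 in Mll5-/- mock, 9.95 ± 0.03 in WT NAC and 9.75 ± 0.12 in WT mock cells (SD, n = 3 each). In the order of the means, the top and the bottom group each stood off from their neighbour by more than the SD within groups of 0.08, and the middle pair differed by 0.02.

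The log2 difference of Hspd1 between genotypes was 0.22 in mock (SE 0.11, 95% interval -0.022 to 0.46, limma adjusted p = 0.796) and 0.19 in NAC (SE 0.11, adjusted p = 0.762). Over both treatments it was 0.20 (SE 0.08, 95% interval 0.03 to 0.37, unadjusted p = 0.022, adjusted p = 0.458). NAC against mock gave 0.17 in Mll5-/- (adjusted p = 0.912), 0.20 in WT (adjusted p = 0.872) and 0.18 over both (SE 0.08, unadjusted p = 0.0355, adjusted p = 0.628). The differences over both were folds of 1.15 for the genotype and 1.14 for NAC, and the interaction was -0.027 (adjusted p = 0.999). Leaving out any 1 array kept the genotype difference over both treatments between 0.175 and 0.235 and the NAC difference between 0.155 and 0.215.

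Hspd1 was the heat shock gene whose groups did not overlap in the genotype in mock (1 of 8, against 5.94% of all genes with every Mll5-/- array higher) and for NAC in WT (1 of 8, against 5.42%). In the genotype in NAC and for NAC in Mll5-/- both Hspd1 and Hspe1 were apart, with the Mll5-/- or the NAC arrays higher (2 of 8, against 6.39% and 5.08%). With 8 genes, these counts are too small to set the heat shock genes off from the rest.

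The Hspe1 signal was 9.73, 9.53 and 9.66 in Mll5-/- NAC arrays, 9.42, 9.49 and 9.48 in Mll5-/- mock arrays, 9.19, 9.48 and 9.46 in WT NAC arrays and 9.47, 9.43 and 9.37 in WT mock arrays. The Mll5-/- NAC arrays were above all 9 others, and the other 3 groups overlapped. Against WT NAC the log2 difference of Mll5-/- NAC was 0.26 (SE 0.12, unadjusted p = 0.0427, limma adjusted p = 0.686), and 0.17 without WT NAC replicate 1. Against Mll5-/- mock it was 0.18 (adjusted p = 0.912). In mock the genotype difference was 0.04 (adjusted p = 0.975), and NAC in WT gave -0.047 (adjusted p = 0.977). The interaction was 0.22 (SE 0.17, adjusted p = 0.999), so a genotype difference that depends on NAC was not shown.

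**Figure D4:**
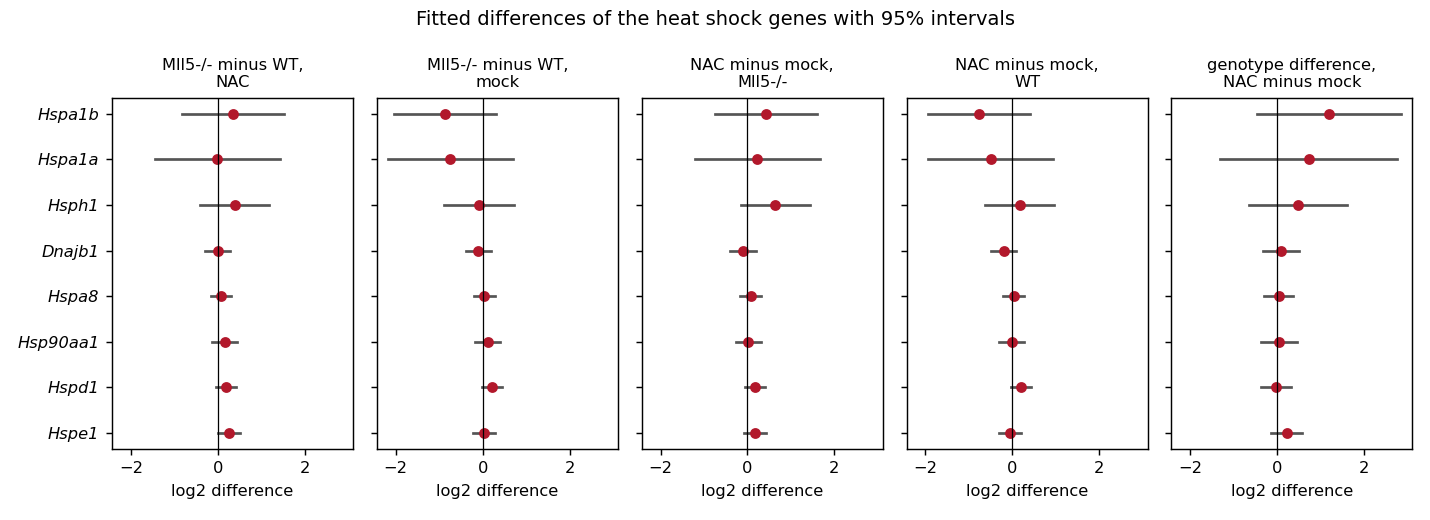
Fitted log2 differences (x axis) of the 8 heat shock genes (rows) in 4 comparisons of 2 groups and in their interaction, each titled with its direction; points are the limma estimates and lines their 95% intervals, before adjustment over genes. Intervals of Hspa1b and Hspa1a span over 2 log2 units. Those of Hspd1 and Hspe1 are narrower, and all of them include 0 except that of Hspe1 for Mll5-/- minus WT in NAC (0.01 to 0.52).

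The wider chaperone network was read from lists of other genes of each class, and none of their members passed an adjusted p of 0.05 in any of the 7 comparisons. Among lists of over 2 genes, the chaperonin TRiC/CCT, the cytosolic barrel that folds actin and tubulin, had the most uniform genotype direction. All 8 subunits were higher in Mll5-/- than in WT in mock (median log2 difference 0.23), in NAC (0.22) and over both treatments (0.245). Of all genes, 50.4%, 50.9% and 50.8% were above 0. The subunits belong to the same complex and were read on the same arrays, so they are not separate evidence. Of the 8, 5 had an unadjusted p under 0.05 over both treatments, against 9.08% of all genes, and the lowest adjusted p was 0.313. Tcp1, its alpha subunit, averaged 8.98 ± 0.07 in Mll5-/- NAC, 8.79 ± 0.08 in Mll5-/- mock, 8.69 ± 0.16 in WT NAC and 8.50 ± 0.07 in WT mock cells (SD, n = 3 each), a genotype difference of 0.29 (SE 0.08, limma adjusted p = 0.313). Cct8, the theta subunit, gave 0.31 (SE 0.09, adjusted p = 0.323). The mean level of the 8 subunits was 9.05 to 9.10 in Mll5-/- NAC arrays, 8.88 to 9.08 in Mll5-/- mock arrays, 8.76 to 8.95 in WT NAC arrays and 8.755 to 8.85 in WT mock arrays, so the genotypes were apart within mock, and within NAC as well.

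Levels of cell type markers are given beside these values. The LSK markers, above, were lower with NAC in both genotypes. All 5 plasma cell markers were read, 2 of them under the median gene level, and their mean was 4.17 to 4.796 in Mll5-/- NAC, 3.92 to 4.16 in Mll5-/- mock, 4.98 to 5.42 in WT NAC and 4.59 to 4.83 in WT mock arrays. They were thus lower in Mll5-/- within each treatment and higher with NAC within each genotype, with no overlap. The 4 lymphoid-primed progenitor markers read averaged 5.91 to 6.79 in Mll5-/- NAC and 7.31 to 7.37 in WT NAC arrays, and 5.80 to 6.84 in Mll5-/- mock and 6.68 to 7.78 in WT mock arrays. For the 4 megakaryocyte markers read, the means were 5.23 to 5.63 in Mll5-/- NAC and 4.74 to 4.98 in WT NAC arrays, and 4.975 to 5.42 in Mll5-/- mock and 4.75 to 5.07 in WT mock arrays. Of the granulocyte and monocyte progenitor markers all 5 were read, at 10.04 to 10.57 in Mll5-/- NAC, 8.73 to 10.22 in Mll5-/- mock, 10.38 to 10.57 in WT NAC and 9.51 to 10.62 in WT mock arrays. In mock arrays these last markers fell from replicate 1 to 3 as Hspa1b did, at 10.22, 9.78 and 8.73 in Mll5-/- and 10.62, 9.75 and 9.51 in WT. In NAC arrays their order was not that of Hspa1b, at 10.04, 10.47 and 10.57 in Mll5-/- and 10.38, 10.57 and 10.54 in WT. Other lists had orders of their own in mock arrays. The LSK markers rose from replicate 1 to 3, at 7.575, 7.64 and 7.77 in Mll5-/- and 7.45, 7.70 and 7.87 in WT. Neutrophil and macrophage markers fell from replicate 1 to 3 in Mll5-/- mock arrays, but not in WT mock arrays. The part of these cell types in the spread of Hspa1b, Hspa1a and Hsph1 was not tested. Nor was their part in the genotype and NAC values of Hspd1, the TRiC/CCT genes and the other HSP70 genes.

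The HSP70 and HSP90 co-chaperones were 16 of 21 higher in Mll5-/- over both treatments, with a median log2 difference of 0.11 (50.8% of all genes above 0). At an unadjusted p under 0.05 in either direction there were 4 (9.08% of all genes). Of these, Ppid, Ptges3 and Bag1 were higher in Mll5-/-, and Bag3 was lower, at -0.35 (SE 0.14, limma adjusted p = 0.491). Ppid, a cyclophilin that docks on HSP90, averaged 7.11 ± 0.28 in Mll5-/- NAC, 6.71 ± 0.21 in Mll5-/- mock, 6.58 ± 0.19 in WT NAC and 6.43 ± 0.09 in WT mock cells (SD, n = 3 each). Its genotype difference was 0.405 (SE 0.12, limma adjusted p = 0.322) and its NAC difference 0.275 (adjusted p = 0.628). Ptges3, the HSP90 co-chaperone p23, gave 0.27 between genotypes (adjusted p = 0.42), and Bag1, an exchange factor of HSP70, gave 0.22 with NAC (adjusted p = 0.569).

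Of the other HSP70 and HSP110 genes, 10 of 11 were higher with NAC over both genotypes (median 0.155, 49.6% of all genes above 0), while 5 of 11 were higher in Mll5-/- (median -0.047, 50.8% of all genes above 0). Hspa4l, a relative of Hsph1, gave 0.27 with NAC (adjusted p = 0.478) and Hspa12b -0.29 (adjusted p = 0.588), the 1 gene of the list below 0. Between genotypes, Hspa4 gave 0.25 (adjusted p = 0.41) and Hspa9, the mitochondrial HSP70, 0.20 (adjusted p = 0.496). Of the 2 other HSP90 genes, Hsp90b1 gave 0.27 with NAC (adjusted p = 0.614) and 0.10 between genotypes (adjusted p = 0.824), and Trap1, the mitochondrial form, 0.17 (adjusted p = 0.742) and 0.093 (adjusted p = 0.798). The 15 other HSP40 genes read had a NAC median of 0.053 with 11 higher, and a genotype median of -0.023 with 5 higher. The smallest p-values with NAC were those of Dnajc3 (0.305, adjusted p = 0.539) and Dnajb11 (0.28, adjusted p = 0.569), and between genotypes those of Dnajb5 (0.25, adjusted p = 0.495) and Dnaja2 (0.23, adjusted p = 0.546).

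In the mitochondrion, 7 of 9 chaperones and proteases were higher in Mll5-/- (median 0.043, 50.8% of all genes above 0) and 8 of 9 with NAC (median 0.12, 49.6% of all genes above 0), but none passed the test. Beside Hspa9, Htra2, a protease, gave 0.19 between genotypes (adjusted p = 0.644), and with NAC Clpp, a matrix protease subunit, gave 0.20 (adjusted p = 0.711) and Grpel2, an exchange factor of Hspa9, 0.27 (adjusted p = 0.737). The list of small heat shock genes, a class that holds unfolded proteins without ATP, was drawn up by gene name. Of the 9 read, 6 were under the median gene level of 3.17, Hspb7 and Cryab among them. No measure of signal over background was used here. Between genotypes 4 of the 9 were higher in Mll5-/-, with Hspb11 at 0.46 (SE 0.14, adjusted p = 0.337) and Hspb7 at 0.195 (adjusted p = 0.637). Hspb11 stands in the list by its name alone, which does not make it a chaperone of this class. With NAC 3 of the 9 were higher (median -0.015), and Cryab gave -0.66 (SE 0.23, adjusted p = 0.505) and Hspb6 -0.17 (adjusted p = 0.786). Among the 9 HSF family genes and HSF1 regulators, 6 were higher in Mll5-/- (median 0.077) and 7 with NAC (median 0.062), but 4 of the 9, Hsf2bp, Hsf3, Hsf5 and Hsbp1l1, were under that level, so these are differences of dim probe sets. Hsf2bp gave -0.29 (adjusted p = 0.567) and Hsf5 0.205 (adjusted p = 0.662) between genotypes, and Hsf3 gave 0.15 (adjusted p = 0.74) and Sirt1, a deacetylase that acts on HSF1, 0.14 (adjusted p = 0.839) with NAC.

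Immediate early genes, which cells switch on within minutes of a stimulus and also during dissociation and sorting, were read beside the heat shock genes. Of 20, 19 were lower in Mll5-/- than in WT over both treatments (median log2 difference -0.26, 49.1% of all genes below 0), 8 of them at an unadjusted p under 0.05 (9.08% of all genes), and 17 were lower with NAC (median -0.19, 50.3% of all genes below 0). Their mean level was 7.03 to 7.37 in Mll5-/- NAC, 7.35 to 7.51 in Mll5-/- mock, 7.52 to 7.66 in WT NAC and 7.56 to 7.88 in WT mock arrays. Btg2, an antiproliferative gene, came closest to the threshold, at 8.46 ± 0.08, 8.85 ± 0.06, 8.99 ± 0.11 and 9.41 ± 0.16 in these groups (SD, n = 3 each), a genotype difference of -0.55 (SE 0.08, limma adjusted p = 0.0597) and a NAC difference of -0.40 (adjusted p = 0.219). Egr1, a growth factor response gene, gave -0.84 between genotypes (adjusted p = 0.225), and Nr4a1, an orphan nuclear receptor, -0.49 with NAC (adjusted p = 0.44). The group means of Hspa1b, Hspa1a and Hsph1 were in other orders, but each mean stood off from the next by less than the SD within groups. The part of handling in the spread of these genes was not tested.

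**Figure D5:**
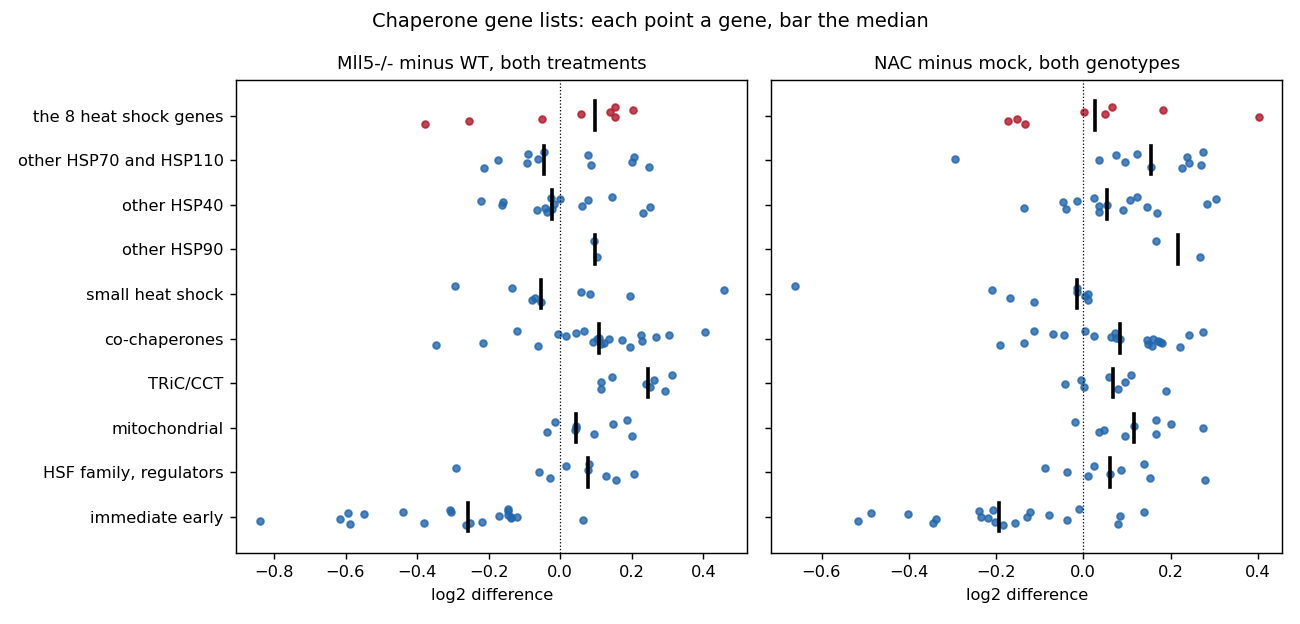
Log2 differences (x axis) of the genes in each list (rows), for Mll5-/- minus WT over both treatments (left) and NAC minus mock over both genotypes (right); each point is a gene and each black bar the list's median. All 8 TRiC/CCT genes lie right of 0 on the left, with a median of 0.245, and 19 of 20 immediate early genes lie left of it.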

How the data were processed

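Signals of total RNA from LSK cells, labelled with biotin, were read on 12 Affymetrix arrays, 3 for each of 4 groups taken from the labels. The authors deposited signals on a log scale, taken here as log2. Per the submitters' processing notes these came from RMA (background correction, quantile normalization and a summary per probe set) in Affymetrix Power Tools; their versions: not given in the sources used here. No source names the log base, which was inferred from values of 0.74 to 13.23. Of 41345 probe sets, 23521 were annotated to 1 symbol, 1814 to several and 16010 were not listed. For each of 22180 symbols the brightest single-symbol probe set was kept, and dim genes were not filtered out.

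One linear model with 4 group means covered the 12 arrays (lmFit and eBayes of limma 3.58.1, R 4.3.3), with Benjamini-Hochberg adjustment over all genes within each comparison and a threshold of 0.05. The fit was tested on simulated data. Correlations used 100000 permutations, two-sided (Python 3.11.15, scipy 1.17.1), and figures matplotlib 3.10.9. Same-numbered arrays of different groups did not deviate together (18 pairs, r -0.057 to 0.056), so no pairing by number was seen. These correlations run over all genes and could miss a pairing that touches few of them. The members, lists and motifs were chosen with earlier results of these data known, and each list is described by counts and medians, with no test. Named were all members, in each list the 2 genes with the smallest p for the genotype and the 2 for NAC, and the 5 genes most like Hspa1b. Bag3 was named as well, for its direction. The alternatives were array weights, keeping genes above the median level, trend and robust variance, median centring, a fresh quantile normalization, averaging all probe sets of a symbol, a replicate block, only the groups compared, an adjusted p under 0.10, leaving out each array and leaving out both that stood apart. Promoters came from RefSeq (GRCm38.p6). Precision depends on how many arrays there are and on the spread of each gene. The median SE of a log2 difference between 2 groups was 0.16 over all genes, with 0.11 for Hspd1 and 0.67 for Hspa1a.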

Additional observations from a re-analysis of the deposited data

How the results depend on the processing

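No heat shock gene passed the threshold in any comparison under any alternative, an adjusted p under 0.10 included, and the lowest adjusted p of any of them was 0.288, for Hspd1 between genotypes over both treatments. Of 56 differences of single heat shock genes, 34 kept their sign under every alternative, and 64 of 1152 alternative values had the other sign. Many of these values could not differ from the main ones. Leaving out an array of a group not compared, the replicate block, the variance setting and the gene filter leave a gene's difference as it is. This holds for the lists below as well. With the replicate block the counts called stayed 0. The medians could not change with it, since every group holds the same replicate numbers. The median for NAC in Mll5-/- was -0.0075 to 0.22 when single arrays were left out, the low end being without Mll5-/- mock replicate 3. The interaction of Hspd1 was -0.115 without both arrays that stood apart. Btg2 alone among the list genes passed the threshold, under trend and robust variance, under fresh quantile normalization and at an adjusted p under 0.10. All 8 TRiC/CCT genes stayed higher in Mll5-/- over both treatments under all 20 alternatives (7 or 8 in mock), and 18 to 20 immediate early genes stayed lower. Counts of all genes called ranged over 0 to 4 in the genotype in mock (2 as reported), 0 to 4 in the genotype in NAC (0), 1 to 7 over both treatments (2), 0 to 2 for NAC in Mll5-/- (1), 1 to 5 for NAC in WT (2), 1 to 4 for NAC over both genotypes (1) and 0 to 2 for the interaction (0); their causes were not tested. With 3 arrays a group, the SE of a difference between 2 groups was 0.54 for Hspa1b and 0.67 for Hspa1a.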

Other observations

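Probe sets annotated to several symbols were left out of the report's fit by gene. The one shared by Hspa1a and Hspa1b read 3.03 ± 0.34 in Mll5-/- NAC, 2.84 ± 0.47 in Mll5-/- mock, 2.88 ± 0.29 in WT NAC and 3.23 ± 0.53 in WT mock cells (SD, n = 3 each), with a genotype difference in mock of -0.39 (SE 0.31, limma adjusted p = 0.893 over 41345 probe sets). The one shared by Hspa8 and Snord14e, a small nucleolar RNA hosted in an Hspa8 intron, read 8.51 ± 1.03 in Mll5-/- NAC, 7.75 ± 0.25 in Mll5-/- mock, 8.37 ± 0.25 in WT NAC and 8.67 ± 0.18 in WT mock cells. Its genotype difference in mock was -0.92 (SE 0.40, unadjusted p = 0.0432, adjusted p = 0.849), beside 0.037 for the Hspa8 probe set used above, and all 3 Mll5-/- mock arrays (7.58 to 8.03) were below all 3 WT mock arrays (8.48 to 8.83). Which of its transcripts this probe set reads was not tested.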
